A study of Mus musculus with 9 samples.

Results

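Collagens are the main structural proteins of the extracellular matrix, and each is built from alpha chains that wind into a triple helix. The genes described here are the 43 rows, of 23337 genes in the count table, whose symbol has the form Col, a number, the letter a and a number. They comprise 11 chains of fibrillar collagens, 8 chains of basement-membrane collagens and 24 chains of other types. Reads were enough for a test in 26 of the 43: 8 fibrillar, 7 basement-membrane and 11 other chains.

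Poly(A) RNA was sequenced from whole liver of 9 C57BL/6 mice, which began a high-fat diet at 6 to 8 weeks of age and stayed on it for 16 weeks. The 3 control mice carried floxed alleles of the gene for protease-activated receptor 2 (PAR2fl/fl, called WT), 3 mice lacked the receptor in hepatocytes (PAR2dHep, called dHep) and 3 were labelled as whole-body PAR2 knockouts (KO). Serine proteases switch on PAR2, a membrane receptor, by cutting it. All mice shared the diet and the strain. The Cre driver of the dHep mice, the allele of the KO mice and the sex of the animals are not given in the sources used here, and no group on a control diet was analysed here.

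Fibrillar collagens, chiefly types I and III with smaller amounts of type V, assemble into the fibrils of connective tissue, and their accumulation in the liver is the scar of fibrosis. Type IV collagen forms the network of basement membranes, and types XV and XVIII are proteoglycans that sit at basement membranes and release fragments such as endostatin. In liver, hepatic stellate cells and portal fibroblasts are known as the main makers of fibrillar collagen, endothelial cells contribute type IV, and hepatocytes are a known source of type XVIII. Type VI forms beaded filaments, and types XII and XIV bind to the surface of fibrils.

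F2rl1, the gene of PAR2, had 17, 27 and 28 reads in the WT livers. It had 2, 8 and 0 reads in dHep. The libraries labelled KO had 71, 103 and 76. Its log2 fold change against WT was -2.73 ± 0.66 in dHep (SE; edgeR, adjusted p = 0.0164; -4.41 without dHep replicate 2) and 2.22 ± 0.51 with the KO label (0.00735). The call in dHep ended without WT replicate 2 (0.0554) or WT replicate 3 (0.0583). Whole-gene counts go against the KO label, so that group is called livers labelled KO below, and each direction given for it rests on the label. Libraries held 18683660 to 30509242 assigned reads. Collagen chain genes took 0.118% to 0.122% of them in the WT livers, 0.0791% to 0.0877% in dHep and 0.0973% to 0.108% in livers labelled KO. The hepatocyte marker Alb was between 67696 and 117676 CPM (counts scaled to library size) in the 9 livers. Skeletal muscle markers summed to 664.1 CPM in dHep replicate 2 and at most 56.6 elsewhere, and pancreatic acinar markers to 1645 CPM in dHep replicate 2, 415.5 in WT replicate 1 and at most 84.7 elsewhere. Calls of single chains that changed without these libraries are given with both values.

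Chains of all 3 classes were lower in dHep and in livers labelled KO than in WT, with type I, III, IV, VI and XIV chains among them, while Col18a1 and Col27a1 were higher in livers labelled KO. In dHep against WT, 14 of 26 fell and 1 rose, that is 53.8% fell, where 11.9% of all 13141 tested genes fell and 12.4% rose (edgeR, adjusted p under 0.05). In livers labelled KO, 15 of 26 fell and 2 rose, that is 57.7% fell, where 22.1% of all tested genes fell and 20.9% rose. The median log2 fold change of the 26 was -1.21 in dHep and -1.14 in livers labelled KO, beside 0.02 and -0.01 over all genes tested. Both comparisons use the same 3 WT libraries, so they are not independent of each other. In bulk RNA, fewer cells of a type and less RNA per cell cannot be told apart.

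**Figure D1:**
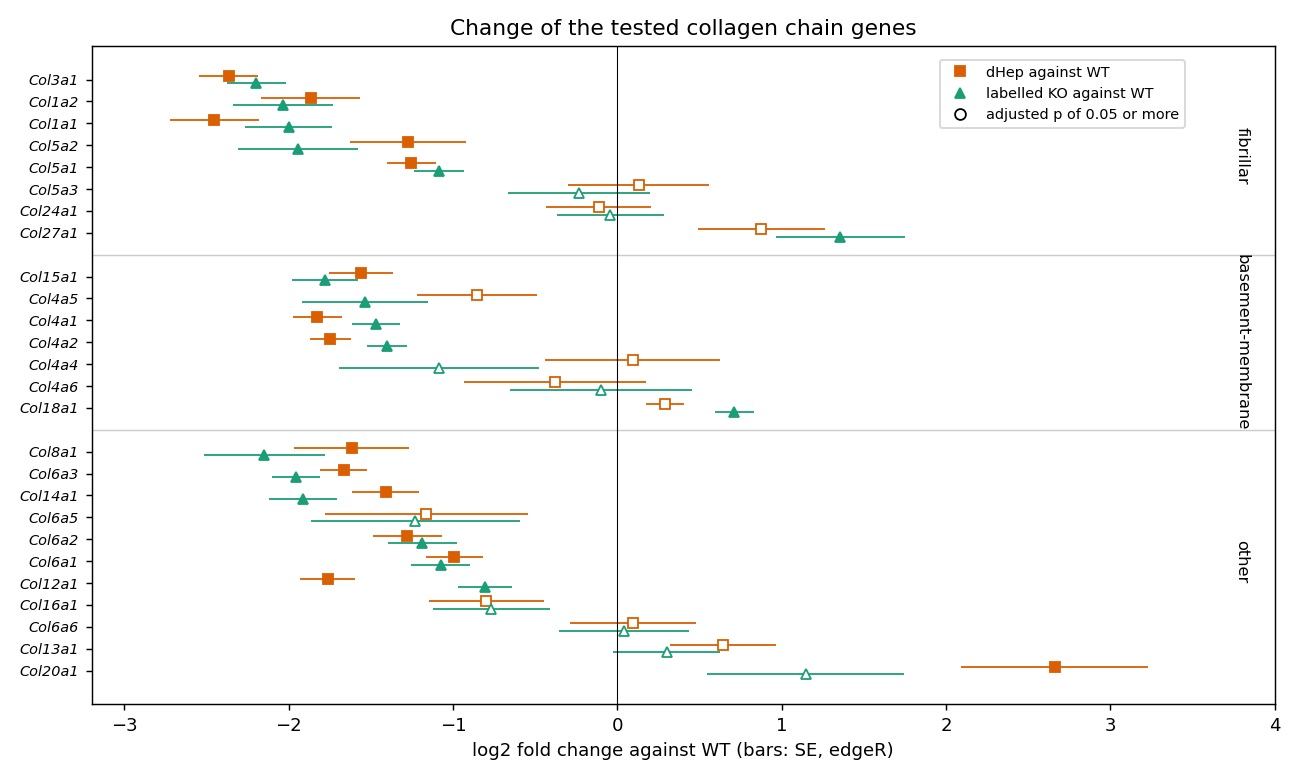
Log2 fold changes against WT (x axis) of the 26 tested collagen chain genes (y axis, grouped by class), with bars for the SE from edgeR; squares are dHep and triangles livers labelled KO, 3 livers per group, and open symbols did not pass an adjusted p of 0.05. Col3a1, Col1a2 and Col1a1 lie near or beyond -2, while Col18a1 and Col27a1 lie above 0, and Col20a1 in dHep is farthest to the right at 2.66.

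Among the fibrillar chains, 5 of 8 tested fell in dHep against WT and the other 3 did not pass, where 11.9% of all tested genes fell. In livers labelled KO the same count fell, 5 of 8, while Col27a1 rose. Over all tested genes 22.1% fell and 20.9% rose there. The fibrillar median was -1.27 in dHep and -1.52 in livers labelled KO. With a stricter filter on low counts, which left out Col24a1, the median in livers labelled KO was -1.94.

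Col3a1 (mm10 chromosome 1, 45311538 to 45349706), the single chain of type III collagen, was the most abundant fibrillar chain per length in WT (24.5 RPKM); in livers labelled KO it averaged 5.33 RPKM, below Col27a1 at 6.36. It stood at 134, 147 and 127 CPM in the WT livers, 22.2, 28.6 and 28.6 in dHep, and 23.9, 38.1 and 27.1 in livers labelled KO. All 6 livers of the other groups thus lay far below the lowest WT liver. The level was 5.15-fold lower in dHep (log2 fold change -2.37 ± 0.18 SE, edgeR adjusted p = 0.000135) and 4.59-fold lower in livers labelled KO (-2.20 ± 0.18, 0.000111).

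Type I collagen, the most abundant collagen of scar tissue, is built from the chains of Col1a1 and Col1a2. Col1a1 (chromosome 11, 94936270 to 94951856) had 19.1, 20.2 and 16.1 CPM in WT, 2.22, 4.30 and 3.68 in dHep, and 3.85, 6.19 and 3.75 in livers labelled KO. It was 5.47-fold lower in dHep (edgeR adjusted p = 0.000678) and 4.003-fold lower in livers labelled KO (0.000645). Neither group overlapped WT, while the dHep livers and the livers labelled KO overlapped each other. Col1a2 (chromosome 6, 4505697 to 4541543) had 39.3, 45.7 and 38.3 CPM in WT, 6.51, 16.1 and 11.3 in dHep, and 7.84, 13.1 and 9.12 in livers labelled KO. It fell by 1.87 ± 0.30 on the log2 scale in dHep (edgeR adjusted p = 0.00328) and by 2.03 ± 0.30 in livers labelled KO (0.00104). Its highest dHep value, 16.1, came from replicate 2, the liver with muscle and pancreatic transcripts, and still lay below WT.

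Type V collagen is a minor partner that starts fibrils of type I. Col5a1 (chromosome 2, 27886425 to 28039510) had 12.8, 14.4 and 12.5 CPM in WT, 6.00, 5.50 and 5.10 in dHep, and 5.17, 7.28 and 6.23 in livers labelled KO, log2 fold changes of -1.25 ± 0.15 and -1.09 ± 0.15 (edgeR adjusted p = 0.00091 and 0.000751). Neither group overlapped WT. Col5a2 (chromosome 1, 45374331 to 45503282) had 13.3, 14.3 and 12.5 CPM in WT and 3.19, 4.30 and 2.89 in livers labelled KO, a fall of 1.94 ± 0.37 on the log2 scale (edgeR, with adjusted p = 0.00294). In dHep it had 3.30, 3.86 and 9.56 CPM, so that replicate 3 stood near WT and apart from the other dHep livers. The change there, -1.28 ± 0.35 (edgeR adjusted p = 0.0281), was not past the threshold when WT replicate 1, WT replicate 2, WT replicate 3, dHep replicate 1 or dHep replicate 2 was left out (adjusted p 0.0594 to 0.0862), or WT replicate 1 and dHep replicate 2 at once (0.11). Nor was it past the threshold with only the 2 groups compared in the fit (0.0645). Without dHep replicate 3 the change was -1.90.

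The remaining fibrillar chains did not share the fall. Col5a3 had 26.8, 22.5 and 22.7 CPM in WT, 43.3, 8.83 and 26.4 in dHep, and 16.3, 24.6 and 20.2 in livers labelled KO. The dHep livers spread widely around WT, and the interval of the log2 fold change ran from -0.84 to 1.09. Col24a1 stayed between 0.404 and 0.658 CPM in all 9 livers, with log2 fold changes of -0.12 and -0.04. Col27a1 (chromosome 4, 63215412 to 63334990), the chain of a fibrillar collagen known from cartilage, had 24.1, 16.9 and 15.9 CPM in WT, 22.0, 20.0 and 62.6 in dHep, and 46.3, 49.3 and 49.98 in livers labelled KO. All 3 livers labelled KO lay above all WT livers, 2.56-fold on average (log2 1.36 ± 0.39, edgeR adjusted p = 0.02). That call ended when WT replicate 2 (0.0687), WT replicate 3 (0.0717), KO replicate 2 (0.0527) or KO replicate 3 (0.0524) was left out. In dHep the mean rested on replicate 3, and the change did not pass (0.88 ± 0.39, adjusted p = 0.13); without dHep replicate 2 it was 1.15 (0.0414), and with WT replicate 1 left out as well 1.36 (0.0462). Without dHep replicate 3 it was 0.15 (0.58). Against dHep, livers labelled KO differed by 0.48 (0.438) with replicate 3 and by 1.21 (0.00547) without it. Replicate 3 of dHep was thus the highest of its group for both Col5a2 and Col27a1.

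**Figure D2:**
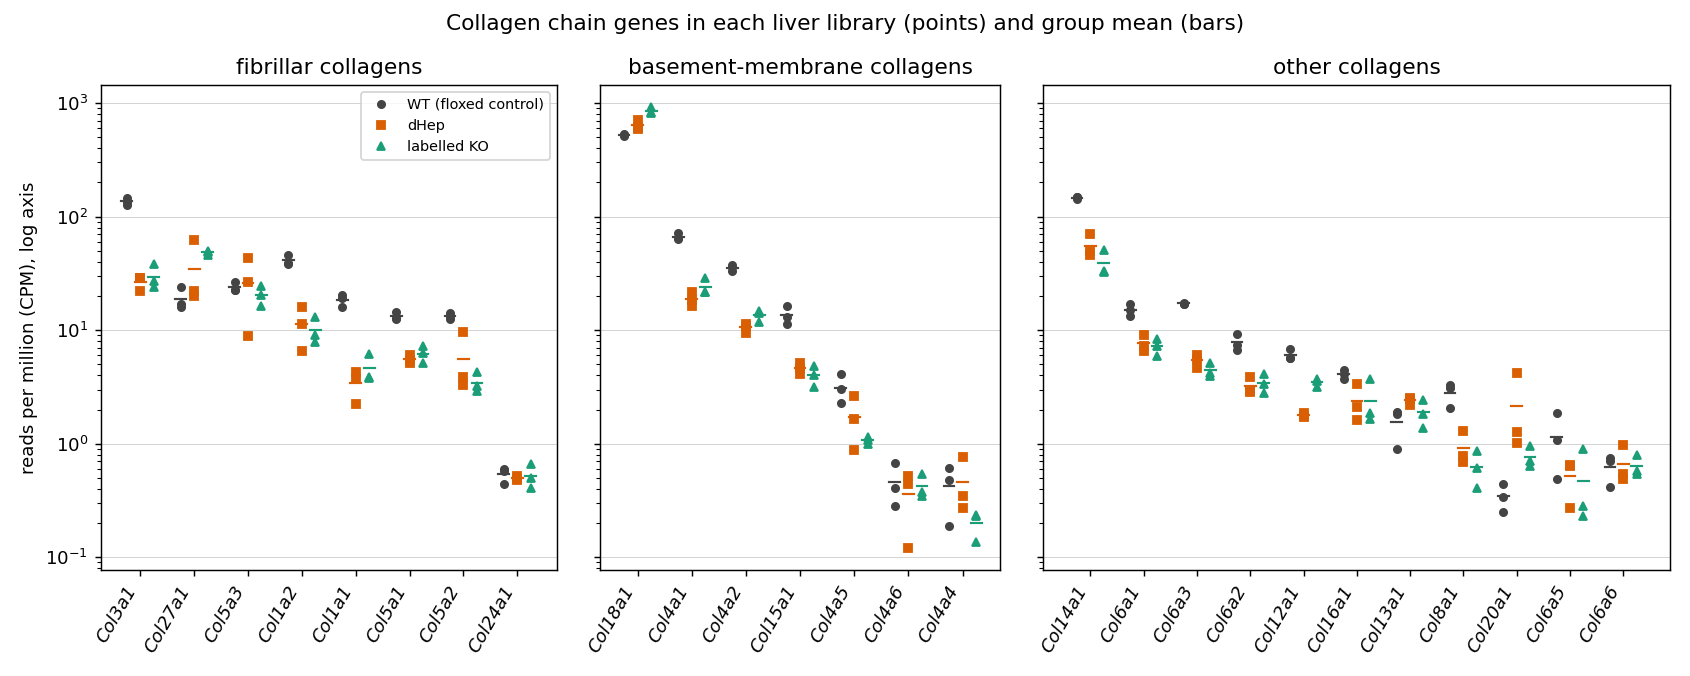
Abundance in CPM (log axis) of the 26 tested collagen chain genes (x axis, by class), 1 point per liver, with WT, dHep and livers labelled KO side by side and a bar at each group mean. For Col3a1, Col1a2, Col14a1, Col4a1 and Col6a3 all WT points lie above all others.

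The 250 bases before the start of Col1a2 and Col3a1, which fell, are shown beside those of Col27a1, which rose in livers labelled KO, to let the regulatory sequence of members with opposite changes be compared. They are RefSeq sequences on GRCm38.p6, the build of mm10, written 5′ to 3′ along the gene. The start used is that of RefSeq, which for Col1a2 is 4505618, while the span counted for Col1a2 starts at 4505697. Capitals mark a CCAAT box (CCAAT, or ATTGG on the other strand), a GC box (GGGCGG, or CCGCCC on the other strand) or a TATA box (TATAAA, or TTTATA on the other strand).
Col1a2, chr6:4505368-4505617, plus strand: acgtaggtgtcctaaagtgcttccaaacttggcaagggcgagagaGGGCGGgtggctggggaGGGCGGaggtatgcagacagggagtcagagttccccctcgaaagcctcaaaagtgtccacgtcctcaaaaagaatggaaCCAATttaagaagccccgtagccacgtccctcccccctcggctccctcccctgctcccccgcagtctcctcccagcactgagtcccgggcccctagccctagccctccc
Col3a1, chr1:45311288-45311537, plus strand: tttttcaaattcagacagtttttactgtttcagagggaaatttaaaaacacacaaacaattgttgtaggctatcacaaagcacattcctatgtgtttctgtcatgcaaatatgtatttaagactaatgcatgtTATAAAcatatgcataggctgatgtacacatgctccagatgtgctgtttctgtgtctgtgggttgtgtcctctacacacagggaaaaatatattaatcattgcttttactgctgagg
Col27a1, chr4:63215162-63215411, plus strand: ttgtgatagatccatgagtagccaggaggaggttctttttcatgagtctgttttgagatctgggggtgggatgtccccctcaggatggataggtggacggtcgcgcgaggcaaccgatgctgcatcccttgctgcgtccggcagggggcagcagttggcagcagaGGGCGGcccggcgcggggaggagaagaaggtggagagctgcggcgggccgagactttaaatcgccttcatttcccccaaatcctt

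The Col1a2 window held 1 CCAAT box and 2 GC boxes and was 62.0% G and C. The Col3a1 window was 35.2% G and C, with 1 TATA box and no GC box. The Col27a1 window held 1 GC box and was 59.6% G and C. Across all 32851 windows of this length, 33.8% held a CCAAT box, 32.7% a GC box and 12.4% a TATA box. A promoter entry matched 35 of the 43 members and 22 of the 26 tested ones; Col1a1, Col5a2, Col12a1 and Col14a1 were not matched. Of the 22, 7 had a CCAAT box, 13 a GC box and 2 a TATA box. The series title names HNF4A, a hepatocyte transcription factor. The letters CAAAGTCCA, a known form of its element, were searched on both strands and stood in 0.384% of all windows and in 0 of the 22. A match is a description of letters and not a binding site, and the absence of these letters says nothing of the factor.

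Among the basement-membrane chains, 3 of 7 tested fell in dHep (Col4a1, Col4a2 and Col15a1), where 11.9% of all tested genes fell. In livers labelled KO 4 of 7 fell, those 3 and Col4a5, and Col18a1 rose. Over all tested genes 22.1% fell and 20.9% rose there. The median was -0.85 in dHep and -1.40 in livers labelled KO. In dHep it moved with the libraries used: it was -0.56 without dHep replicate 3 and -0.62 without WT replicate 2. It was -1.27 without dHep replicate 2, and -1.30 without WT replicate 1 and dHep replicate 2. With a stricter filter on low counts, which left out Col4a4 and Col4a6, it was -1.56.

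Col4a1 and Col4a2 encode the chains of the common type IV network and are read in opposite directions from chromosome 8, with 2 bases between their spans (11198423 to 11312826 and 11312829 to 11449287). Col4a1 had 65.3, 63.4 and 71.2 CPM in WT, 18.4, 21.7 and 16.3 in dHep, and 21.7, 28.7 and 21.8 in livers labelled KO. It was 3.54-fold lower in dHep (edgeR adjusted p = 0.000163) and 2.77-fold lower in livers labelled KO (0.000231). Both groups lay well below WT and did not overlap it. Col4a2 had 37.6, 35.8 and 33.5 CPM in WT, 10.9, 11.4 and 9.47 in dHep, and 11.8, 14.6 and 14.02 in livers labelled KO, 3.36-fold and 2.64-fold lower (edgeR adjusted p = 0.000103 and 0.000162). Per length, the ratio of Col4a1 to Col4a2 was 1.83 ± 0.21 (SD, n = 3) in the WT livers, 1.72 ± 0.12 in dHep and 1.74 ± 0.20 in livers labelled KO, with overlap between all 3 groups. For both chains all livers labelled KO were at or above the highest dHep liver, by 0.36 and 0.35 on the log2 scale, and neither difference passed (edgeR adjusted p = 0.146 and 0.105).

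The minor type IV chains were rare. Col4a5, a chain best known from the kidney, had 3.01, 4.08 and 2.28 CPM in WT, 1.65, 2.61 and 0.883 in dHep, and 0.986, 1.09 and 1.15 in livers labelled KO. It was 2.90-fold lower in livers labelled KO (edgeR adjusted p = 0.0109), where no liver reached the lowest WT value. In dHep the change of -0.85 did not pass (0.119), and without dHep replicate 2 it was -1.27 (0.0233). Col4a4 and Col4a6 reached at most 0.763 and 0.676 CPM in a liver and did not pass in either comparison. Without WT replicate 1 and dHep replicate 2, Col4a4 was lower in livers labelled KO (-1.43, edgeR adjusted p = 0.0427).

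Types XV and XVIII are close relatives, and they moved in opposite directions in livers labelled KO. Col15a1 (chromosome 4, 47208012 to 47313165) had 11.3, 16.5 and 13.2 CPM in WT, 4.11, 5.14 and 4.66 in dHep, and 3.15, 4.02 and 4.79 in livers labelled KO. It was 2.95-fold lower in dHep (edgeR adjusted p = 0.00109) and 3.44-fold lower in livers labelled KO (0.000339). Col18a1 (chromosome 10, minus strand, 77052179 to 77166530) had 532, 523 and 511 CPM in WT, 587, 615 and 712 in dHep, and 924, 811 and 830 in livers labelled KO. The 3 groups did not overlap, with WT lowest and livers labelled KO highest. The rise was 1.64-fold in livers labelled KO (log2 0.71 ± 0.12, edgeR adjusted p = 0.0016). In dHep the difference from WT, 0.29 ± 0.12, did not pass in edgeR (0.101), passed in DESeq2 (0.0283) and passed in edgeR without dHep replicate 1 (0.0454). Between livers labelled KO and dHep it was 0.42 (95% interval 0.16 to 0.68, edgeR adjusted p = 0.0518). It was past the threshold in DESeq2 (0.00264), and in edgeR with the stricter filter (0.0449) and without dHep replicate 3 (0.0134).

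Col18a1 has more than 1 known start, and liver is known to use a downstream one. Both RefSeq windows are printed because this was the abundant chain that rose, with capitals for the same motifs.
Col18a1 upstream start, chr10:77166531-77166780, minus strand: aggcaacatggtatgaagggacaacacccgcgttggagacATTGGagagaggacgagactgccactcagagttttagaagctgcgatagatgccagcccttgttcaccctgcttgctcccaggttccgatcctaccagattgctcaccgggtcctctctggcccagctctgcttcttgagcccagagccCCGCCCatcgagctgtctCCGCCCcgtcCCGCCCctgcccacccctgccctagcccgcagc
Col18a1 downstream start, chr10:77113706-77113955, minus strand: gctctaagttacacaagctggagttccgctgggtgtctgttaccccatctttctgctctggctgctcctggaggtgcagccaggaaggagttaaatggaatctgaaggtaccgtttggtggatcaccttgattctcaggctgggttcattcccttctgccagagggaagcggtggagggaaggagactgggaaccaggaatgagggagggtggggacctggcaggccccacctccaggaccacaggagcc

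The upstream window held 1 CCAAT box and 3 GC boxes, all on the other strand, and the downstream window had no match to these motifs. Counts are per gene, so reads from the separate starts were not told apart. Col18a1 and the type VI chains Col6a1 and Col6a2 lie on the same strand of chromosome 10, with 326134 bases between the spans of Col6a1 and Col18a1. Col6a1 and Col6a2 fell in livers labelled KO, where Col18a1 rose.

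Of the other chains, 6 of 11 tested fell in dHep and Col20a1 rose, where 11.9% of all tested genes fell and 12.4% rose. In livers labelled KO 6 of 11 fell, where 22.1% of all tested genes fell, and the other 5 chains did not pass. The median was -1.16 in dHep (-1.53 without WT replicate 1 and dHep replicate 2, -0.89 without dHep replicate 1) and -1.08 in livers labelled KO.

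The 3 common chains of type VI collagen, a filament-forming collagen around cells, fell in both groups. Col6a1 had 15.1, 17.1 and 13.4 CPM in WT, 6.51, 9.12 and 7.31 in dHep, and 5.92, 8.41 and 7.27 in livers labelled KO, with log2 fold changes of -0.99 ± 0.18 and -1.08 ± 0.18 (edgeR adjusted p = 0.00482 and 0.00157). Col6a2 had 6.65, 9.34 and 7.38 CPM in WT, 2.88, 3.86 and 2.89 in dHep, and 2.82, 4.07 and 3.35 in livers labelled KO, with log2 fold changes of -1.28 ± 0.21 and -1.19 ± 0.21 (0.00354 and 0.00222). Every WT liver lay above every other liver for each chain. Col6a3 had 17.5, 17.2 and 17.0 CPM in WT, 4.62, 6.06 and 5.59 in dHep, and 4.23, 5.11 and 3.92 in livers labelled KO, falling by 1.67 ± 0.14 and 1.96 ± 0.15 on the log2 scale (edgeR, with adjusted p = 0.000225 and 7.2e-05). Per length, the ratio of Col6a3 to Col6a1 was 0.419 ± 0.048 (SD, n = 3) in the WT livers, 0.262 ± 0.018 in dHep and 0.228 ± 0.032 in livers labelled KO. All 3 WT ratios lay above all others, and this ratio was given no test.

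Col14a1 and Col12a1 encode collagens that bind to fibrils. Col14a1 (chromosome 15, 55307750 to 55520803) had 149, 149 and 142 CPM in WT, 45.8, 69.8 and 49.98 in dHep, and 32.9, 51.3 and 32.4 in livers labelled KO. It was 2.66-fold lower in dHep (edgeR adjusted p = 0.00201) and 3.77-fold lower in livers labelled KO (0.000294), with the latter overlapping dHep. Col12a1 (chromosome 9, 79598991 to 79718678) had 5.67, 5.67 and 6.88 CPM in WT, 1.86, 1.73 and 1.77 in dHep, and 3.57, 3.16 and 3.69 in livers labelled KO. The 3 groups were apart, with dHep lowest. It was 3.40-fold lower in dHep (edgeR adjusted p = 0.00034) and 1.75-fold lower in livers labelled KO (0.00411).

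Col8a1, a short-chain collagen of vessel walls, was low in every group. It had 2.07, 3.30 and 3.10 CPM in WT, 0.690, 1.29 and 0.785 in dHep, and 0.611, 0.859 and 0.404 in livers labelled KO. It was 3.07-fold and 4.44-fold lower than in WT (edgeR adjusted p = 0.0106 and 0.00189). Col20a1 moved against its class. It had 9, 12 and 7 reads in WT, 141, 25 and 26 in dHep, and 15, 21 and 11 in livers labelled KO. Its level was 0.344 CPM in WT, 2.17 in dHep and 0.763 in livers labelled KO, with replicate 1 holding most of the dHep reads. The log2 fold change in dHep was 2.66 ± 0.57 (edgeR adjusted p = 0.0103), it was 1.71 without dHep replicate 1, and the call ended without WT replicate 3 (0.0516). With the KO label its change did not pass (1.15, edgeR adjusted p = 0.146). It did without dHep replicate 1 in the fit (0.0261) and with only the 2 groups compared in the fit (0.0253). Col16a1 had log2 fold changes of -0.80 and -0.77 that did not pass (edgeR adjusted p = 0.128 and 0.107). It passed in dHep without replicate 2 (-1.15, 0.0378) and in livers labelled KO without KO replicate 2 (-1.23, 0.0243). In limma voom on all libraries it also passed in livers labelled KO (-0.84, 0.013). Col13a1, Col6a5 and Col6a6 did not pass in either comparison, with levels of 0.231 to 2.55 CPM per liver. In livers labelled KO, Col6a5 passed in edgeR without KO replicate 2 (-2.12, 0.0486) and with the replicate number as a block (-1.24, 0.0495).

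Col18a1 held the largest share of collagen message in every liver. On a per-length scale (RPKM, counts scaled to gene length and library size), Col18a1 was the highest of all chains in WT at 90.1, ahead of Col3a1 at 24.5, Col14a1 at 22.7, Col4a1 at 10.1 and Col1a2 at 7.99. Its share of the summed collagen RPKM was 46.7% to 48.5% in the WT livers, 73.3% to 74.9% in dHep and 75.8% to 83.1% in livers labelled KO. The share of Col3a1 went from a mean of 12.98% in WT to 3.20% and 2.89%, and that of Col14a1 from 12.1% to 5.79% and 3.26%.

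Summed fibrillar RPKM was 46.5 ± 3.26 (SD, n = 3) in the WT livers, 18.2 ± 4.20 in dHep and 19.4 ± 3.18 in livers labelled KO. For the basement-membrane chains without Col18a1 it was 18.8 ± 0.28, 5.79 ± 0.82 and 6.77 ± 0.85, and for the other chains 33.1 ± 1.48, 14.5 ± 2.58 and 11.3 ± 2.53. In each of these 3 sums all WT livers lay above all others. With Col18a1 the basement-membrane sum was 109 ± 1.62, 116 ± 10.8 and 154 ± 9.75, with dHep overlapping WT and the livers labelled KO above both. All chains summed to 189 ± 6.02, 149 ± 14.02 and 185 ± 6.85, and without Col18a1 to 98.5 ± 4.75, 38.4 ± 2.90 and 37.5 ± 6.46. The sums over members are descriptions and carry no test.

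**Figure D3:**
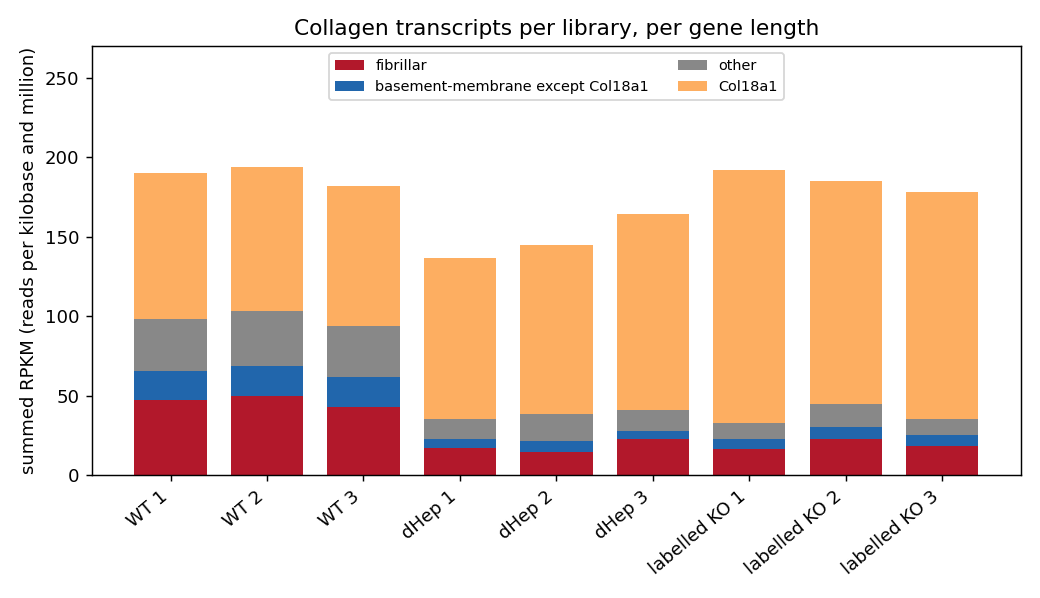
Summed RPKM (y axis, linear from 0) of fibrillar, basement-membrane and other collagen chain genes in each of the 9 livers, with Col18a1 drawn apart from the remaining basement-membrane chains. The sums without Col18a1 average 98.5 in WT, 38.4 in dHep and 37.5 in livers labelled KO, while Col18a1 averages 90.1, 110.2 and 147.6.

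The proportions of partner chains were followed per length. Col1a1 to Col1a2 stood at 0.533, 0.485 and 0.461 in WT, 0.373, 0.293 and 0.357 in dHep, and 0.538, 0.517 and 0.450 in livers labelled KO. The dHep livers lay below all others in this ratio. Col6a1 to Col6a2 was 1.85 ± 0.24 (SD, n = 3) in the WT livers, 2.24 ± 0.13 in dHep and 1.98 ± 0.05 in livers labelled KO, with overlap between WT and dHep. Col1a2 to Col3a1 was 0.326 ± 0.009 in WT and 0.364 ± 0.009 in livers labelled KO, and spread from 0.316 to 0.609 in dHep, the highest in replicate 2.

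**Figure D4:**
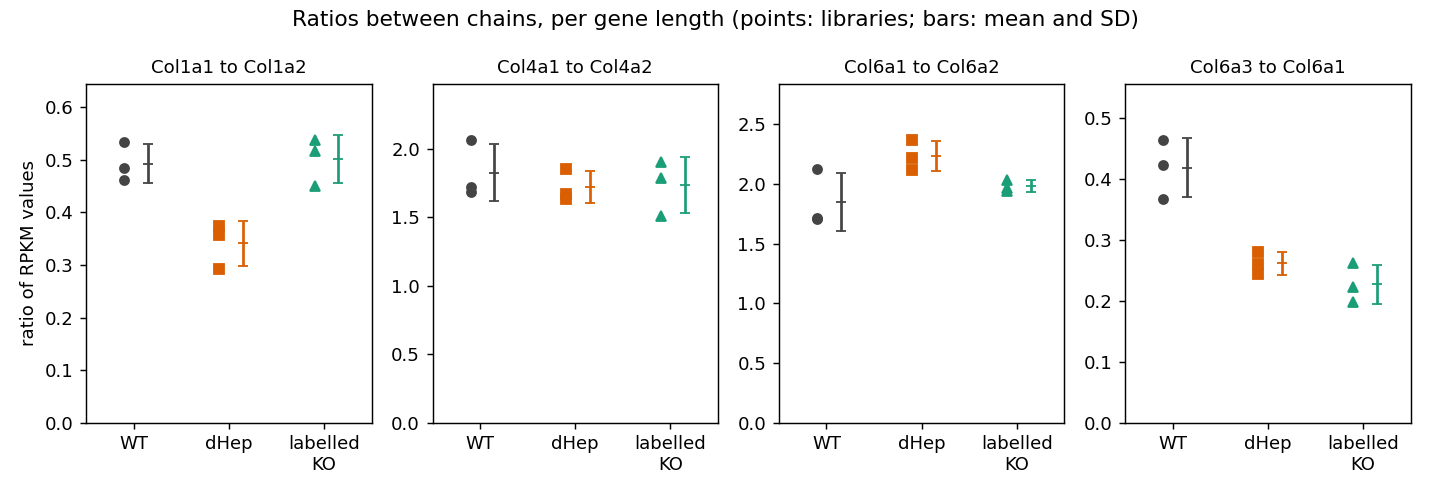
Per-length ratios of partner collagen chains (y axis, ratio of RPKM) in each liver, 1 panel per pair, with the group mean and SD drawn beside the points. Col4a1 to Col4a2 overlaps across groups, Col6a3 to Col6a1 is higher in all 3 WT livers, and Col1a1 to Col1a2 is lower in all 3 dHep livers.

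Between livers labelled KO and dHep, 1 of 26 tested chains passed: Col12a1 was higher by 0.96 ± 0.17 on the log2 scale (edgeR, with adjusted p = 0.0109). Over all tested genes 5.39% fell and 4.23% rose in this comparison. In edgeR 0 chains fell and 1 rose, or 2 and 4 at an unadjusted p under 0.05. In DESeq2 0 fell and 2 rose, and in limma voom 0 passed in either direction. The Col12a1 call ended in limma voom (0.0803), with only the compared groups in the fit (0.0787) and when WT replicate 1 and dHep replicate 2 were left out at once (0.0527). The median over the chains was -0.06. For the fibrillar chains the 95% intervals were -0.22 to 0.56 for Col3a1, -0.16 to 1.06 for Col1a1 and -0.84 to 0.51 for Col1a2 on the log2 scale. A difference that did not pass does not show that the groups are alike.

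The 17 chains that were not tested were Col2a1, Col11a1, Col11a2, Col4a3, Col6a4, Col7a1, Col8a2, Col9a1, Col9a2, Col9a3, Col10a1, Col17a1, Col19a1, Col22a1, Col23a1, Col25a1 and Col28a1. Col2a1, the chain of cartilage type II collagen, had no read in any liver, and the highest mean among the 17 was 0.370 CPM. Some had many of their reads in 1 liver. Col6a4 had 31 reads in KO replicate 1, 2 in dHep replicate 2 and none elsewhere. The intestinal gene Vil1 stood at 39.3 CPM in the same KO liver and at most 1.28 in the others. Cdx1, of the same marker list, had 0.470 CPM there and 0 elsewhere. The intestinal markers Fabp2 (259 CPM) and Lgals4 (0.752 CPM) in that liver lay within the range of the others. The cholangiocyte marker Epcam stood at 17.0 CPM there and at most 3.29 elsewhere, and Cftr at 1.88 and at most 0.452. The cholangiocyte marker Sox9 was also highest there, at 4.98 CPM beside 4.66 in KO replicate 2. The cholangiocyte markers Krt19 (5.26 CPM, as in dHep replicate 2), Krt7 (0.845) and Spp1 (61.9) lay within the range of the others. Col11a1 had 8 of its 9 reads in dHep replicate 2, and Col25a1 had 22 of 47 there. The part of other tissue in these reads was not tested.

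Genes that make, modify and cross-link collagen changed in both directions. Of 27 tested genes of collagen synthesis and processing, 6 fell and 3 rose in dHep (median log2 fold change -0.33), where 11.9% of all genes fell and 12.4% rose. In livers labelled KO 8 fell and 4 rose (-0.45), where 22.1% of all genes fell and 20.9% rose, and no direction is read for the list. Loxl2, a lysyl oxidase-like enzyme that cross-links collagen, fell by 1.92 ± 0.24 on the log2 scale in dHep (edgeR adjusted p = 0.00105) and by 2.04 ± 0.24 in livers labelled KO (0.000424). Lox, another cross-linking enzyme, fell by 2.63 ± 0.36 in dHep (0.00174) and by 1.85 ± 0.35 in livers labelled KO (0.003). Ppib, a prolyl isomerase that aids folding in the endoplasmic reticulum, rose by 0.62 ± 0.13 in dHep (0.00829) and by 0.91 ± 0.13 in livers labelled KO (0.000747). Of the galactosyltransferases, Glt25d2 rose in dHep (2.51 ± 0.63, 0.0198), and Glt25d1 fell in dHep (-0.37 ± 0.12, 0.045) and in livers labelled KO (-0.90 ± 0.12, 0.000586). Bmp1, which trims procollagen, rose in both (0.50 ± 0.15, 0.0375, and 0.68 ± 0.15, 0.00584).

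Of 16 tested partners of collagen in the basement membrane, 8 fell and 1 rose in dHep (median log2 fold change -0.68), where 11.9% of all genes fell, and 9 fell and 1 rose in livers labelled KO (-0.97), where 22.1% fell. The other members did not pass. Nid1, a linker of laminin and type IV collagen, fell by 1.95 ± 0.20 and 2.40 ± 0.20 on the log2 scale (edgeR, with adjusted p = 0.000486 and 0.000146). Pxdn, a peroxidase that cross-links type IV collagen, fell by 1.16 ± 0.18 in dHep (0.00277) and 1.09 ± 0.18 in livers labelled KO (0.0016), and the linker Nid2 fell by 1.36 ± 0.19 in livers labelled KO (0.000863). The laminin chain Lama3 rose in both groups, by 1.97 ± 0.35 and 2.35 ± 0.35 (0.00471 and 0.00101). Among 8 tested collagen receptors, 2 fell in dHep (median -0.59), and 3 fell and 1 rose in livers labelled KO (-0.29). Over all genes 11.9% fell in dHep, and 22.1% fell and 20.9% rose in livers labelled KO. With 8 genes no direction is read for the receptor list. The integrin chain Itga1 fell by 0.69 ± 0.14 and 1.01 ± 0.14 (0.00906 and 0.00087), and the leukocyte receptor Lair1 by 1.16 ± 0.33 and 2.11 ± 0.35 (0.031 and 0.00158). The integrin chain Itga10 rose in livers labelled KO (0.94 ± 0.29, 0.027).

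Transforming growth factor beta is the best known inducer of collagen genes in stellate cells. Of 18 tested genes of its signals and targets, 6 fell in dHep (median -0.29; all genes 11.9%) and 7 in livers labelled KO (-0.48; all genes 22.1%), and the others did not pass. The ligand Tgfb2 fell by 1.80 ± 0.32 on the log2 scale in dHep (edgeR adjusted p = 0.00478) and by 1.92 ± 0.33 in livers labelled KO (0.00185). Ltbp2, a latent transforming growth factor beta binding protein by name, fell by 1.94 ± 0.34 in dHep (0.00461), and the receptor Tgfbr2 fell by 0.97 ± 0.22 in dHep (0.0131) and by 1.24 ± 0.22 in livers labelled KO (0.00238).

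Markers of several cell types were measured beside these changes, over groups in the order WT, dHep and livers labelled KO. Over all tested genes 11.9% fell and 12.4% rose in dHep, and 22.1% fell and 20.9% rose in livers labelled KO. The 5 myofibroblast markers summed to 74.3 to 76.9 CPM in the WT livers, 18.6 to 41.2 in dHep and 25.6 to 31.1 in livers labelled KO, and 4 of 5 fell in each group. The member that did not pass was Acta2, at -1.03 ± 0.39 on the log2 scale in dHep (edgeR adjusted p = 0.0866). In livers labelled KO the Acta2 change was 0.04 ± 0.38 (edgeR adjusted p = 0.947). Much of the WT sum came from Postn, at 42.3, 47.9 and 45.4 CPM. Timp1, an inhibitor of matrix proteases, fell by 3.28 ± 0.38 and 3.19 ± 0.39 on the log2 scale (edgeR, with adjusted p = 0.000838 and 0.000477). The 10 markers of quiescent stellate cells summed to 605.9 to 662.5, 440.6 to 697.0 and 364.9 to 479.1 CPM, and 1 and 6 of 10 fell. The overlap between WT and dHep in this sum came from dHep replicate 2 (697.0). The dHep replicates 1 and 3, at 440.6 and 507.7 CPM, lay below all WT livers. Dcn made up much of this sum, with 288, 300 and 284 CPM in WT and 158, 249 and 198 in dHep. The median log2 fold change of the 10 markers was -0.24 in dHep and -0.74 in livers labelled KO. The 8 endothelial markers summed to 290.9 to 322.2, 187.5 to 264.2 and 141.9 to 194.5 CPM, and 4 and 7 of 8 fell. The 8 portal fibroblast markers summed to 19.6 to 20.0, 8.12 to 19.9 and 10.6 to 14.6 CPM, and 2 and 1 of 6 tested fell. The 5 macrophage markers summed to 188.0 to 236.4, 117.4 to 210.1 and 46.7 to 92.1 CPM, and 3 and 5 of 5 fell. The 5 mesothelial markers summed to 2.85 to 4.70, 3.33 to 13.1 and 5.43 to 8.69 CPM, with median log2 fold changes of 1.04 and 0.67, and the member nearest to the threshold was Upk3b in dHep (edgeR adjusted p = 0.0572). The 5 hepatocyte markers summed to 88176.6 to 92749.3, 93233.3 to 135207 and 90804.3 to 102410 CPM, and 2 of 5 rose in each group: Apoa1 by 1.02 and 1.13 on the log2 scale, and Serpina1a, which has near-identical paralogs, by 1.18 and 1.78. In each of these 7 sums the highest dHep value came from replicate 2, the liver with muscle and pancreatic transcripts. No marker of these 7 lists was at 0 in all 9 livers. The part of any of these cell types in the collagen changes was not tested.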

How the data were processed

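Per the labels' protocols, RNA from whole liver was made into TruSeq stranded poly(A) libraries. Per the submitters' processing notes, FastQC, HISAT2 2.1.0 with mm10 and DESeq2 were used. Per the file headers, the authors deposited raw counts per gene from featureCounts 1.6.2 with strand setting 2, and a Length column, of another kind of unit, in bases. Columns were matched to samples by name. Collagen genes, classes and related lists were chosen with earlier results of these data known. Counts from all 9 libraries were fitted together by quasi-likelihood in edgeR 4.0.16, run in R 4.3.3, with TMM factors (0.883 to 1.10) and filterByExpr (minimum count 10, total 15), which kept 13141 genes. P values were Benjamini-Hochberg adjusted over these and called under 0.05; the SE is the log2 fold change over the square root of F. CPM and RPKM use TMM-scaled libraries. Ranks of 3 against 3 cannot go below a two-sided exact permutation p of 0.1. The design text counts mice, and no batch, date or litter is given.

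Named with values were 13 chains of a set list and tested chains averaging 1 CPM or more that had a call. Chains called against their class were named as well. From the related gene lists, the 2 called genes with the smallest p per direction against WT were named. Their calls between livers labelled KO and dHep are not given. Marker lists are given mainly as sums and counts, and the cholangiocyte, adipose and intestinal lists not in full. Chains and genes of the related lists not named are given as counts. Alternatives were median-of-ratios size factors, DESeq2 1.42.0, limma 3.58.1 voom, no filter, a stricter filter (1 CPM in 3 libraries), only the groups compared, the replicate block, leaving out each library, and leaving out both WT replicate 1 and dHep replicate 2. The edgeR script was tested on simulated data. Exons of 2 untested chains, Col7a1 and Col9a3, overlap another gene; no tested chain's exons do.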

Additional observations from a re-analysis of the deposited data

How the results depend on the processing

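No called change turned its sign under the alternatives run. Values that were not called did: Col5a3 in dHep ran from -0.45 to 0.63, Col4a4 in dHep from -0.84 to 0.44, and the basement-membrane median between livers labelled KO and dHep was 0.28, and -0.18 without dHep replicate 1. Of the collagen calls, 13 of 15 in dHep against WT and 16 of 17 in livers labelled KO against WT passed in all alternatives with a value, and the 1 call between those livers and dHep did not. The calls that fell per class stayed within 1.5 times of the values given. Calls between livers labelled KO and dHep moved most: 2 chains passed in DESeq2, 0 in limma voom, 2 with the stricter filter, 0 with only the groups compared, 0 without WT replicate 1 and dHep replicate 2 together, and 1 to 3 when 1 library was left out, the most without dHep replicate 3. Over all genes, 1264 passed there, beside 2068 in DESeq2, 802 in limma voom, 296 with only the groups compared, 481 without WT replicate 1 and dHep replicate 2 together, and 397 (without KO replicate 3) to 2835 (without dHep replicate 3) when 1 library was left out. In dHep against WT 3192 genes passed, and 1435 (without WT replicate 3) to 4022 (without dHep replicate 2) when 1 library was left out. The F2rl1 log2 fold change in dHep ranged from -4.41 to -2.28 when 1 library was left out. Same-numbered samples did not deviate together (r of -0.272 to 0.027 over 9 pairs), so the numbers were not taken as pairs; with the replicate block 15, 18 and 1 collagen chains passed in the 3 comparisons. The cause of these moves was not tested. Depth limits the 5 tested chains with a mean under 1 CPM and the 17 that were not tested.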
